A study of Mus musculus with 4 samples.

Results

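Wnt signalling genes were followed through mouse tail and back skin 48 h after a photodynamic treatment. The set holds 30 genes named by symbol: Wnt ligands, receptors, R-spondins, secreted inhibitors, nuclear factors and target genes. Of these, 29 were found on the array among 16862 genes with a usable name, and the cyclin gene Ccnd1 had no probe that matched. Where a gene had more than 1 probe, the brightest stood for it, which concerned 7 members. The other 22 members had 1 probe.

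The treated groups received methyl aminolevulinate cream (Metvix), from which cells make a light-absorbing porphyrin, and after 2.5 h in darkness red light of 636 nm. Tails were given 10 J/cm2 and backs 2.5 J/cm2, so skin site and light dose changed together. Animals for back treatment were shaved. The groups were treated tail, untreated tail control, treated back and untreated back control, with 3 animals in each by the study design and 1 array for each group. Whether RNA of the 3 animals was pooled is not stated, and the labels give neither strain, age nor hair cycle stage. No difference here therefore has a replicate check, no test was possible, and all values describe these 4 arrays. The labels say tail skin, whereas the extraction protocol speaks of tail epidermis. As the 4 arrays lay on 1 slide, a group cannot be told apart from its position there.

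Wnt proteins are secreted lipid-modified signals that bind Frizzled receptors together with LRP co-receptors. In the canonical branch this stops the destruction of beta-catenin, which then enters the nucleus and acts with factors of the TCF and LEF family on target genes such as Axin2. Skin uses the pathway to renew the basal epidermis, to start hair growth from the resting follicle and to direct cells of the hair matrix into the shaft. Secreted inhibitors of the DKK, SFRP and WIF families and R-spondins, which strengthen the response, set its range.

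The array's overall brightness differed between groups. At the 75th percentile the probes had a processed signal of 909 on the treated tail array, 7261 on the tail control, 1204 on the treated back and 1860 on the back control. Levels are therefore given as multiples of each array's own 75th percentile, and differences on the log2 scale after that scaling. Differences of 2-fold or more were called higher or lower. The scanner error of a difference, typically 0.20, covers spots and not animals. Saturation or a signal not well above background on 1 array of a pair left only a bound, written "at least". Between 23 and 25 of the 29 members were well above background on each array. Markers of basal and of suprabasal keratinocytes on the array were all well above background on the 4 arrays. Among 10 fibroblast markers, 8 or 9 were well above background on each array, those of the tail included. In such bulk samples, fewer cells of a type and less RNA per cell cannot be told apart.

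Because LEF and TCF proteins bind a short motif next to the genes they control, the 250 bases before the start of each member were searched for it, in RefSeq sequence of build GRCm38.p6. The motif was CTTTG followed by AA, AT, TA or TT, on both strands, and 19 of the members had a window. A match stood in 4 of 25 windows (16%) and in 4874 of 32851 windows of all genes (14.8%), so the members' share was close to that of all genes. The members with a match were Lef1, Wnt11, Fzd7 and Dkk1. Shown are the Lef1 window and the Wnt11 window that hold a match, since both genes were higher in the treated tail. The other Lef1 windows and the other Wnt11 window, which belong to other starts of these genes, held no match. The Axin2 window is shown since that gene is the usual target used to read the pathway. Capitals mark the match, which lies on the minus strand in Lef1 and Wnt11. It begins 147 bases before the start that belongs to the Lef1 window shown, and 51 before that of the Wnt11 window shown. The Axin2 window held none of these letters, which says nothing about the factors.
Lef1, chr3:131156044-131156293, plus strand: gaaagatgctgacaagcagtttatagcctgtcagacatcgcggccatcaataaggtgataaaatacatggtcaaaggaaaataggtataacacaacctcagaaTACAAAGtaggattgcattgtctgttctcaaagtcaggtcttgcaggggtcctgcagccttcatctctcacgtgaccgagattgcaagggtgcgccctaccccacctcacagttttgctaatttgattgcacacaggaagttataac
Wnt11, chr7:98834862-98835111, plus strand: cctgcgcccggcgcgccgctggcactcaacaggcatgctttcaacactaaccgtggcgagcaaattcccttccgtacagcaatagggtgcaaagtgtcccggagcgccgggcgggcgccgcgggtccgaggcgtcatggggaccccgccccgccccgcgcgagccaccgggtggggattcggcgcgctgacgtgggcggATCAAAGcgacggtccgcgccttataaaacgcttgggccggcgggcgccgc
Axin2, chr11:108920099-108920348, plus strand: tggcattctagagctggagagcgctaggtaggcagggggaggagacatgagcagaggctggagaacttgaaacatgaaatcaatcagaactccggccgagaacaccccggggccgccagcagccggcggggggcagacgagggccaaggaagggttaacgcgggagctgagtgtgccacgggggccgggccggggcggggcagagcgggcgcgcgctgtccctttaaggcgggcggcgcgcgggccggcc

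**Figure D1:**
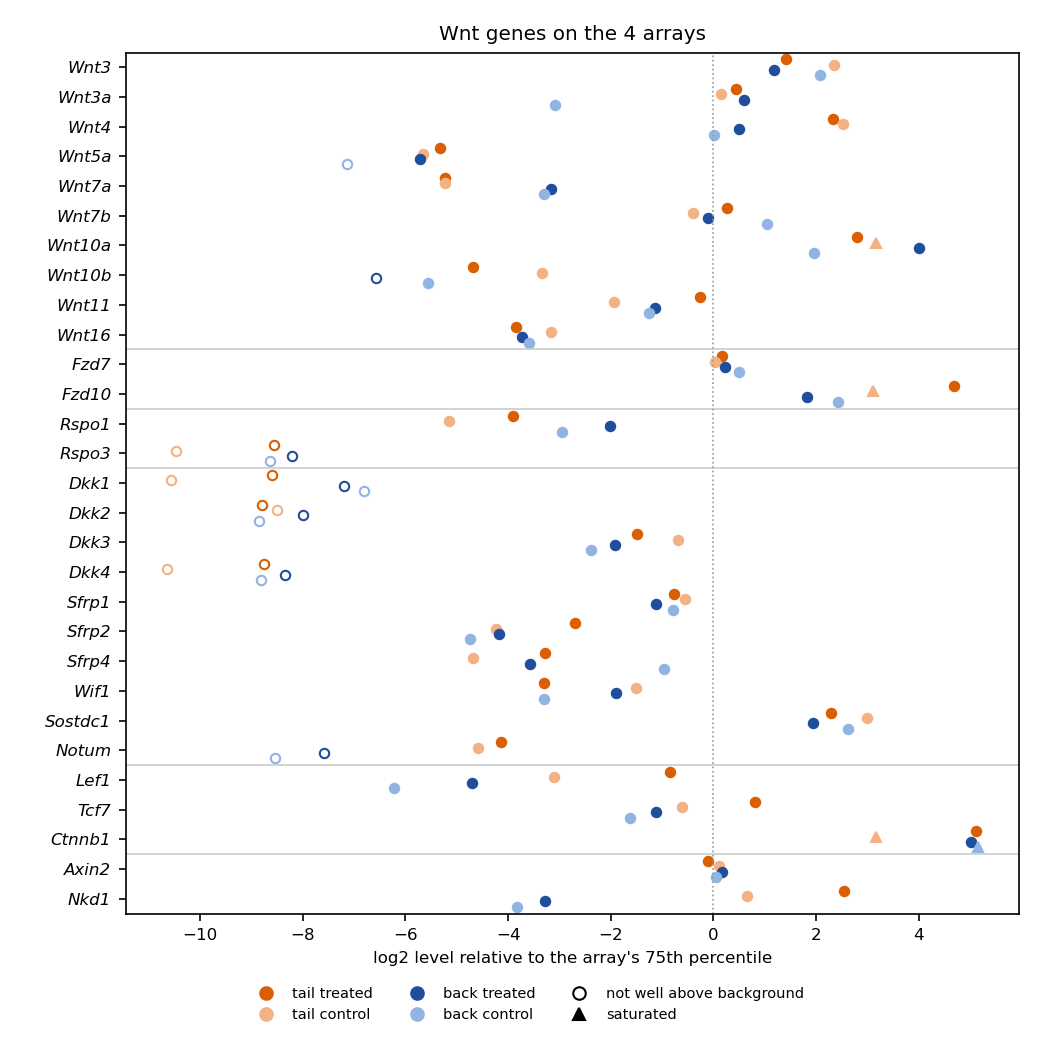
Log2 level of the 29 Wnt genes relative to each array's 75th percentile (horizontal axis), by gene and role (vertical axis, grey lines between roles). Filled points are levels well above background, open points are not well above background and triangles are saturated spots. Axin2 lies close to 0 on all 4 arrays, while Nkd1, Lef1 and Sfrp4 spread widely.

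The first comparison asked how the pathway differed in treated tail skin. The nuclear factors Lef1 and Tcf7 were 4.78-fold and 2.70-fold higher on the treated tail array, and the feedback inhibitor Nkd1 was 3.70-fold higher. The ligand Wnt11 was 3.19-fold and the inhibitor Sfrp2 2.91-fold higher. The inhibitor Sfrp4 and the agonist Rspo1 were also higher, whereas the ligand Wnt10b and the inhibitor Wif1 were lower. Values were available for 23 members, of which 7 were higher (30.4%) and 2 lower (8.70%). Of all genes with a value, 27.2% were higher and 6.55% lower, so neither share stood far from that of the array as a whole. The members' median difference was 0.14, against 0.33 over all genes.

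These directions rest on scaling to the 75th percentile. Scaling to spike-in controls moved the median of all genes by -1.96, and of the 7 raised members Lef1 alone was then above 0, at 0.19, with the other 6 between -0.82 and -0.18. Relative to the median of all genes, each of the 7 was higher under every alternative tried. Settings that add the same constant to every gene, such as spike-in and median scaling, nearly cancel in this measure by construction. They could not have changed that result, whereas normexp, quantile normalization, cyclic loess and mean probes could. The lowest such value was 1.69 for Lef1, 0.50 for Tcf7, 0.81 for Nkd1 and 0.99 for Wnt11. It was 0.97 for Sfrp2, 0.82 for Sfrp4 and 0.65 for Rspo1. Of all calls over the genes of the array, 80.6% were higher with the 75th percentile, against 54.0% after cyclic loess and 57.8% after quantile normalization. Among the members, higher calls made up 77.8% with the 75th percentile, 6 of 12 after cyclic loess and 45.5% after quantile normalization.

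Lef1, the partner of beta-catenin in hair matrix and precortex cells, had levels of 0.556 on the treated tail array, 0.116 on the tail control, 0.0384 on the treated back and 0.0134 on the back control. Both tail arrays were above both back arrays, and each treated array was above its control. The difference in the tail was 2.26 ± 0.20 (scanner error).
Tcf7, which encodes the related factor TCF1, had levels of 1.76 on the treated tail array, 0.653 on the tail control, 0.458 on the treated back and 0.324 on the back control. The tail difference was 1.43, and a second Tcf7 probe gave 0.98, just short of 2-fold. With the brighter probe the order of the 4 arrays was the same as for Lef1, whereas the second probe put the treated back below its control, at -0.21.
Nkd1, an inhibitor of Dishevelled whose own gene is switched on by Wnt, had levels of 5.82 on the treated tail array, 1.57 on the tail control, 0.102 on the treated back and 0.0706 on the back control. It was thus high in both tail samples and low in both back samples. The tail difference was 1.89.

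Axin2, a scaffold of the destruction complex and the most widely used Wnt target, did not follow these genes. Its level was 0.928 on the treated tail array, 1.08 on the tail control, 1.13 on the treated back and 1.03 on the back control. It differed by -0.21 in the tail, by 0.13 in the back and by -0.06 between the controls, close to or below the size of the scanner error. The Ctnnb1 gene for beta-catenin was saturated on both controls and had no value in the tail. In the back its bound was -0.14 on the log2 scale, lower on the treated array, and a second, unsaturated probe gave -0.56 there.

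Of the 10 ligands, 1 was called higher in the treated tail and 1 lower, with a median of -0.10. The other 8 were not called, and for Wnt10a among them only a bound was available. Wnt11, which acts mostly through beta-catenin-independent branches, had levels of 0.831 on the treated tail array, 0.260 on the tail control, 0.452 on the treated back and 0.420 on the back control. The treated tail stood apart from the other 3 arrays, with a difference of 1.67 in the tail. Wnt10b, a canonical ligand that promotes hair growth, had levels of 0.0391 on the treated tail array, 0.0983 on the tail control and 0.0213 on the back control, and was not well above background on the treated back array. Its difference in the tail was -1.33 ± 0.22, but 2.21 with normexp background correction, so its direction in the tail depended on the processing.

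Other epidermal ligands changed less in the tail. Wnt3 had levels of 2.67 on the treated tail array, 5.09 on the tail control, 2.27 on the treated back and 4.19 on the back control. Its differences were -0.93 in the tail and -0.88 in the back, and the second probe gave -1.48 and -0.99, so both treated arrays were below their controls with either probe, and the second probe passed 2-fold in the tail. Wnt4 and Wnt16 differed by -0.19 and -0.68 in the tail, Wnt7b by 0.66, Wnt3a by 0.29 and Wnt5a by 0.33. Wnt10a was saturated on the tail control and at least 1.30-fold lower in the treated tail. Wnt7a, the remaining ligand, had a level of 0.0266 on both tail arrays.

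Secreted inhibitors differed among themselves. Sfrp2 and Sfrp4, frizzled-related proteins made mainly by connective tissue cells, were 1.54 and 1.39 higher in the treated tail. Normexp background correction gave 3.12 and 3.49, and quantile normalization put Sfrp4 at 0.90, below 2-fold. The size of these differences therefore depended on the processing. Sfrp2 had levels of 0.155 on the treated tail array, 0.0532 on the tail control, 0.0553 on the treated back and 0.0374 on the back control. Wif1, which binds Wnt ligands directly, was 1.80 lower on the log2 scale in the treated tail, although normexp background correction gave 0.73. Dkk3 and Sostdc1 (also known as wise or ectodin), both expressed in hair follicles, differed by -0.79 and -0.71, and Sfrp1 by -0.21. Its second probe gave -1.62, so the probes of Sfrp1 disagreed by more than 2-fold. Notum, an enzyme that removes the lipid from Wnt proteins, differed by 0.44. Dkk1, Dkk2 and Dkk4, which block LRP co-receptors, and the R-spondin gene Rspo3 were not well above background on any of the 4 arrays and have no value.

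Rspo1, a ligand of LGR receptors that amplifies Wnt signals, had levels of 0.0665 on the treated tail array, 0.0280 on the tail control, 0.246 on the treated back and 0.129 on the back control. Its tail difference of 1.25 fell below 2-fold after quantile normalization and cyclic loess, at 0.67 and 0.83. Spike-in scaling gave -0.82 and normexp background correction 3.86, so size and sign depended on the processing. The receptor gene Fzd7 differed by 0.14 with either probe. Fzd10 was saturated on the tail control, and its unsaturated second probe differed by 0.15.

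Several lists of cell type markers were mostly higher in the same pair, but not all. Of 8 fibroblast markers with a value, 5 were higher and 1 lower (median 1.22), and 5 of 7 skeletal muscle markers were higher (median 1.21). All 4 adipocyte markers with a value (median 1.83), all 3 endothelial ones (median 2.15) and 3 of 4 neutrophil ones (median 3.58) were higher. Neutrophil markers summed to 144 on the treated tail array and 8.60 on the tail control. Saturation caps the treated tail sum, since S100a8 and S100a9, which make up nearly all of it, were saturated there. Only 1 neutrophil marker was measured on both tail arrays, at -0.42, and the 3 called higher were bounds. Among the others, Csf3r was not well above background on either tail array. Summed over the list, the fibroblast markers nevertheless stood at 5.02 on the treated tail array and 5.89 on the tail control. Proliferation markers had a median of -0.12 with none of 6 called. Of the 8 hair matrix and inner root sheath markers, 3 had a value, of which 1 was higher, and their median was 0.80. The part of these cells in the Wnt differences was not tested.

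**Figure D2:**
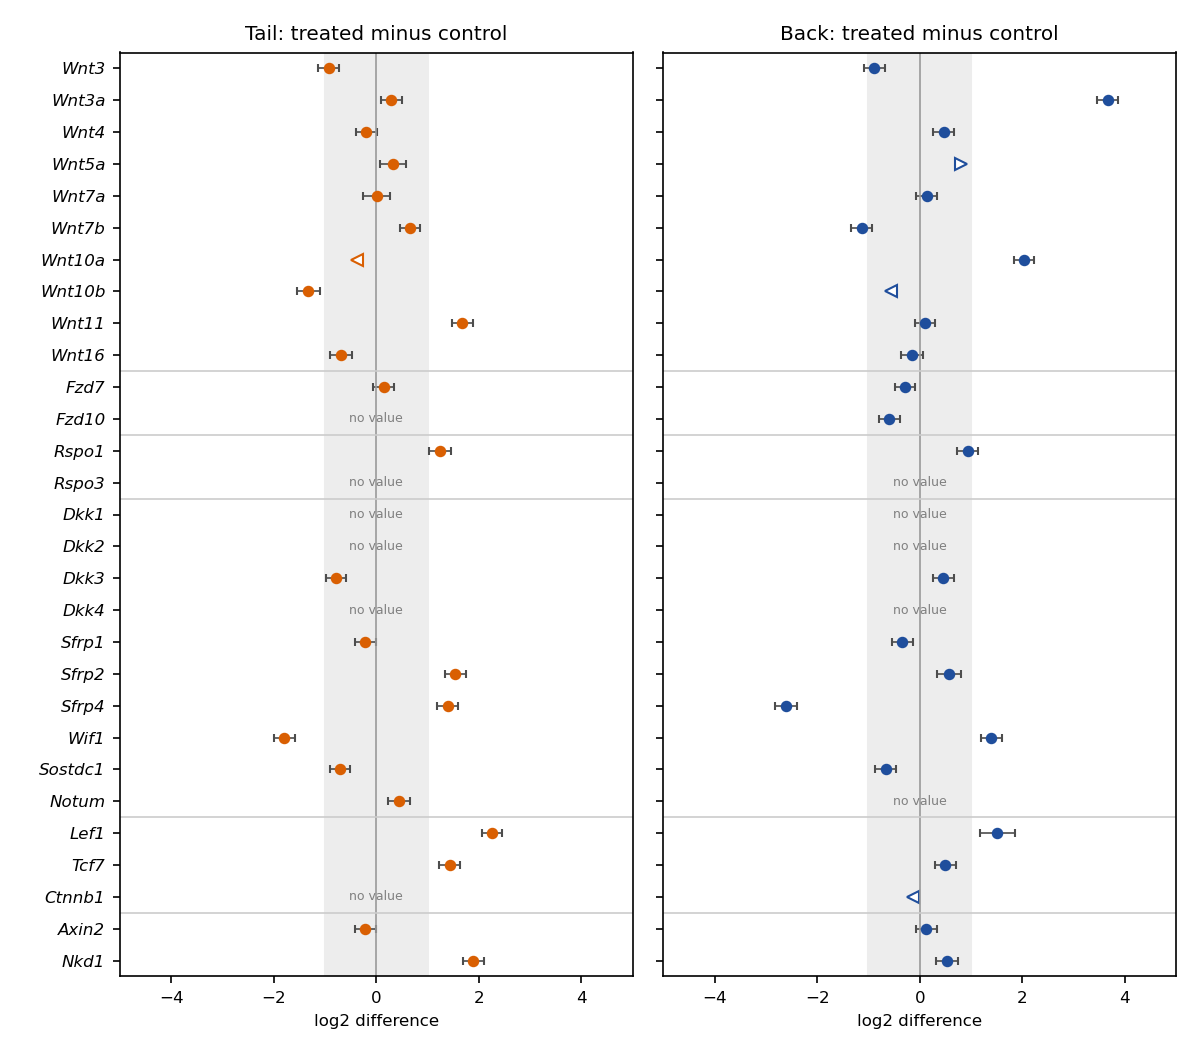
Log2 difference, treated minus control, of each Wnt gene in the tail (left) and the back (right). Points are values measured on both arrays with the scanner error as bars, open triangles are bounds, and the grey band marks differences under 2-fold; 7 genes were higher in the tail and 4 in the back, and spike-in scaling would bring 6 of the 7 in the tail below 0.

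The back skin was examined in the same way. The canonical ligands Wnt3a and Wnt10a were 12.7-fold and 4.10-fold higher on the treated back array. Lef1 was 2.86-fold and Wif1 2.63-fold higher. Sfrp4 was 6.08-fold lower and the ligand Wnt7b 2.19-fold lower. Values were available for 24 members: 4 were higher (16.7%) and 2 lower (8.33%), beside 13.6% and 12.6% of all genes, so neither share stood far from that of the array. The median was 0.13, against -0.01 over all genes.

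Wnt3a, a ligand that activates beta-catenin, had levels of 1.50 on the treated back array and 0.118 on the back control. On the treated tail array and the tail control its levels were 1.35 and 1.11, so the back control alone was low. The difference in the back was 3.67 ± 0.21 and stayed between 3.21 and 3.67 under every alternative.
Wnt10a, a ligand of the epidermis and hair follicle whose loss causes ectodermal dysplasia in humans, had levels of 16 on the treated back array and 3.90 on the back control. It stood at 6.94 on the treated tail array and was saturated on the tail control. The difference of 2.04 in the back ranged from 1.58 to 2.09 over the alternatives.
Wnt7b, expressed by follicle and epidermal keratinocytes, had levels of 0.936 on the treated back array and 2.05 on the back control, a difference of -1.13. Its levels on the treated tail array and the tail control were 1.19 and 0.757, so the tail pair ran the other way without reaching 2-fold.

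The remaining back ligands were closer to their control. Wnt5a was not well above background on the back control and at least 1.75-fold higher on the treated back array, and Wnt10b was at least 1.48-fold lower. Wnt4 differed by 0.47, Wnt11 by 0.10, Wnt7a by 0.13 and Wnt16 by -0.15. Among nuclear and feedback genes, Lef1 was 1.52 ± 0.35 higher, while Tcf7 and Nkd1 differed by 0.50 and 0.54. The back difference of Lef1 rests on low signals and was 0.88 with normexp background correction. With their brightest probe the other inhibitors and receptors were within 2-fold: Dkk3 at 0.46, Sfrp1 at -0.34, Sfrp2 at 0.56, Sostdc1 at -0.67, Fzd7 at -0.29 and Fzd10 at -0.60. The second Sfrp1 probe passed 2-fold in the back too, at -1.52. Rspo1 was 0.93 higher, just short of 2-fold, and Notum was not well above background on either back array.

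In the same pair, all 6 proliferation markers on the array were higher (median 1.80), with summed levels of 15.3 on the treated back array and 4.10 on the back control. Of 8 hair matrix and inner root sheath markers, 5 were lower, with summed levels of 0.900 and 2.76 on the same arrays. Among fibroblast markers 3 of 8 were higher and 1 lower, with sums of 8.94 and 7.58. Neutrophil markers were higher in 3 of 4 cases (median 3.64, or 2.34 over the 2 measured on both arrays). Macrophage and leukocyte markers were higher in 3 of 5 (median 1.84). Most keratinocyte markers were saturated: 2 of 3 basal ones with a value were higher (median 1.69) and both suprabasal ones were lower (median -4.26). The part of these cells in the differences of Wnt3a, Wnt10a, Lef1 and Sfrp4 was not tested.

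The responses of the skins were set side by side. Over the 19 members measured on all 4 arrays, 12 had the same sign in back and tail and 7 the opposite sign. Over all 11271 genes measured on all 4 arrays, 5714 had the same sign and 5557 the opposite. Lef1, Sfrp4 and Wif1 were called in both skins, and of these Lef1 alone ran in the same direction, at 1.52 in the back and 2.26 in the tail. The back and tail comparisons share no array, but light dose differed between them.
Sfrp4 had levels of 0.0843 on the treated back array, 0.512 on the back control, 0.103 on the treated tail and 0.0391 on the tail control. The back control stood far above the other 3 arrays. Its differences were -2.60 in the back and 1.39 in the tail.
Wif1 had levels of 0.267 on the treated back array, 0.101 on the back control, 0.102 on the treated tail and 0.353 on the tail control. The treated back and the tail control were the higher arrays of their pairs, with differences of 1.40 in the back and -1.80 in the tail.
Wnt3a and Dkk3 were higher by 3.38 and 1.24 in the back response than in the tail response. Wnt7b, Wnt11 and Nkd1 differed by -1.79, -1.57 and -1.35. Together with Sfrp4 and Wif1 these were 7 of the 19 measured members whose responses differed by 2-fold or more, 3 of them higher and 4 lower in the back. Wnt10a, 2.04 higher in the back and known only to be lower in the tail, is not among the 19. Among all genes 15.5% were higher and 28.6% lower in the back response, and the members' shares were 15.8% and 21.1%.

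The untreated skins were compared last. Members lower on the back control array than on the tail control outnumbered those higher. Nkd1 was 22.3-fold, Wnt3a 9.37-fold, Lef1 8.66-fold, Wnt4 5.64-fold and Wnt10b 4.62-fold lower in the back. Sfrp4 was 13.1-fold, Rspo1 4.60-fold, Wnt7a 3.82-fold and Wnt7b 2.71-fold higher there. The values of Lef1 and Wnt10b rest on low signals on the back control array, 25.0 and 39.6. With normexp background correction their log2 differences were -1.33 and -1.08, so the size of both depended on the processing. Of 24 members with a value, 10 were lower (41.7%) and 4 higher (16.7%). Of all genes 17.2% were lower and 27.4% higher, so the lower share of the members was above that of the array and the higher share below it. The members were picked with earlier results of these data known, so this contrast describes the chosen genes and is no test of the pathway. The median of the members was -0.60, against 0.19 over all genes.

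Wnt4, an epidermal ligand, had levels of 1.01 on the back control and 5.72 on the tail control, with 1.41 on the treated back array and 5.0 on the treated tail. Treated or not, tail samples were above back samples, and the difference between the controls was -2.50.
Wnt7a, an epithelial ligand, had levels of 0.101 on the back control and 0.0266 on the tail control, a difference of 1.93, and its treated arrays lay at 0.111 in the back and 0.0266 in the tail. It was the reverse of Wnt4: both back samples were above both tail samples.
Dkk3, a divergent member of the DKK family, had levels of 0.193 on the back control and 0.618 on the tail control, a difference of -1.68. Wif1 differed by -1.80 and Tcf7 by -1.01, and Tcf7 missed 2-fold under 4 alternatives, with a value of -0.93 nearest to 0. Wnt10a was at least 2.31-fold lower and Notum at least 3.86-fold lower on the back control.
Notum had levels of 0.0566 on the treated tail array and 0.0418 on the tail control, and was not well above background on either back array. With normexp background correction its difference between the controls was -0.17.

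The other members were not called between the skins. For Wnt5a and Fzd10 there were only bounds, at least 1.83-fold and at least 1.61-fold lower on the back control, and the second probe of Fzd10 passed 2-fold at -1.88. Wnt11 differed by 0.69, Sfrp2 by -0.51 and Wnt16 by -0.43. Fzd7 differed by 0.47 with its brighter probe and by -0.41 with the other, so its direction was not settled. Sostdc1, Wnt3 and Sfrp1 differed by -0.38, -0.28 and -0.24, and Axin2 by -0.06.

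Marker lists differed between the untreated skins in both directions. Of 8 hair matrix and inner root sheath markers, 7 were lower on the back control, with a median of -5.42. Their summed level was 0.900 on the treated back array, 2.76 on the back control, 355 on the treated tail and 50.7 on the tail control. Saturation caps both tail sums, since 4 of the 8 markers were saturated on both tail arrays. The tail sums therefore cannot be set against each other. All 3 melanocyte markers with a value were lower on the back control, and the list summed to 0.594 there and 8.19 on the tail control. Of the proliferation markers, 3 of 6 were lower. On the back control 6 of 8 fibroblast markers were higher and 1 lower (median 1.89). Markers of T cells (5 of 5, median 2.75) and neutrophils (3 of 4, median 2.14) were also mostly higher there. So were those of macrophages and leukocytes (4 of 5, with 1 lower, median 2.12) and adipocytes (3 of 4, median 1.18). The dermal papilla list summed to 0.674 on the back control and 1.86 on the tail control, with Corin not well above background on any array. Member by member, however, 3 of the 7 with a value were higher on the back control and 2 lower, with a median of 0.99. The part of any of these cell types in the Wnt differences was not tested.

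**Figure D3:**
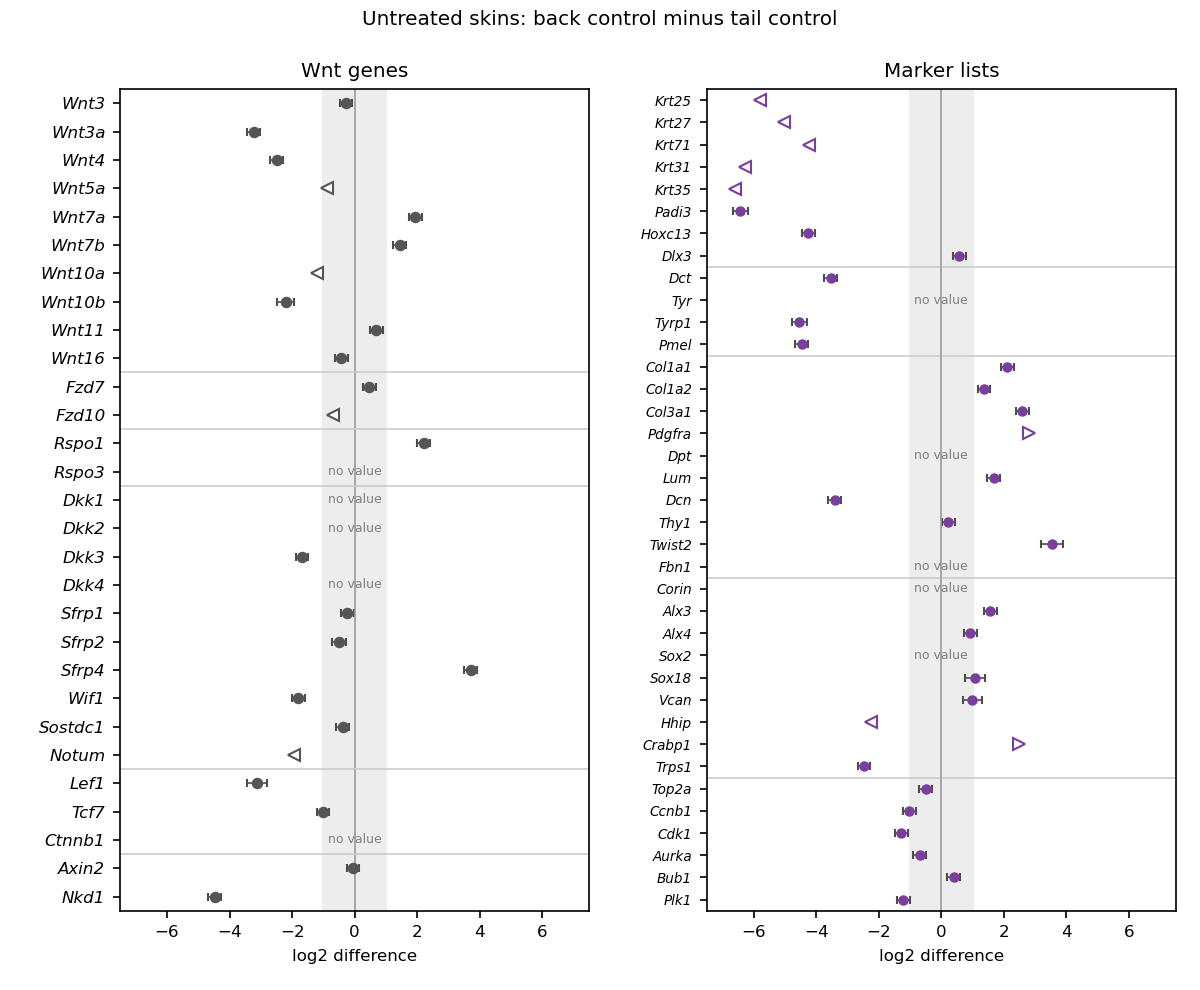
Log2 difference, back control minus tail control, of the Wnt genes (left) and of markers of hair matrix and inner root sheath, melanocytes, fibroblasts, dermal papilla and proliferation (right, top to bottom). Points carry the scanner error, open triangles are bounds and the grey band marks less than 2-fold; 10 Wnt genes and 7 of 8 hair markers were lower on the back control.

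Further genes of the pathway numbered 88, of which 86 were on the array. In the treated tail 19 of 70 with a value were higher (27.1%) and 7 lower (10%), beside 27.2% and 6.55% of all genes, and their median was 0.18. Higher were other ligands (4 of 7), with Wnt9a at 1.84, Wnt1 at 1.74 and Wnt2 at 1.64. These ligands had low signals, for Wnt2 12.3 on the treated tail array and 31.5 on the tail control. Normexp background correction gave 3.68 for Wnt9a, 3.85 for Wnt1 and 5.15 for Wnt2, so the size of these differences depended on the processing. The surface inhibitors Sost, Sfrp5 and Draxin were 3.04, 1.76 and 1.38 higher, and the receptor Fzd4 2.10 higher. The stem cell receptors Lgr5 and Lgr6, which bind R-spondins, were 1.52 and 1.20 higher. Inside the cell, the Dishevelled gene Dvl2 differed by -2.34, the Apc relative Apc2 by 2.30 and the Nkd1 relative Nkd2 by 2.17, and the target gene Fosl1 by -4.41. With spike-in scaling Wnt9a, Wnt1, Wnt2, Sfrp5, Draxin, Lgr5 and Lgr6 were below 0. They stayed above the median of all genes, a place that this scaling leaves nearly unchanged by construction.

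In the treated back 7 of 74 of these genes were higher and 7 lower (9.46% each), beside 13.6% and 12.6% of all genes, and their median was -0.09. Porcn, which attaches the lipid to Wnt proteins, was 2.15-fold higher and the polarity gene Celsr1 1.07 higher on the log2 scale. Of the target genes, Msx1 and Fosl1 differed by -2.38 and -1.47 and the receptor gene Ephb2 by 1.48. Dvl2 differed by -1.21, the Dickkopf-like gene Dkkl1 was at least 4.69-fold lower, and Ctnnbip1, which blocks beta-catenin from TCF factors, was at least 3.34-fold lower. Dvl2 and Fosl1 were below their controls in both skins.

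Between the untreated skins 14 of 71 were higher in the back (19.7%, beside 27.4% of all genes) and 16 lower, with a median of -0.08. Nkd2, like Nkd1, was lower on the back control, at -2.05, as was the Dishevelled inhibitor Dact2 at -2.81. Sost and Msx1 were 2.90 and 2.31 higher there, and Lgr5 and Lgr6 were each 1.11 higher. The lower genes made up 22.5% of this wider list, beside 17.2% of all genes and 41.7% of the 24 members, which were picked with results of these arrays known.

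**Figure D4:**
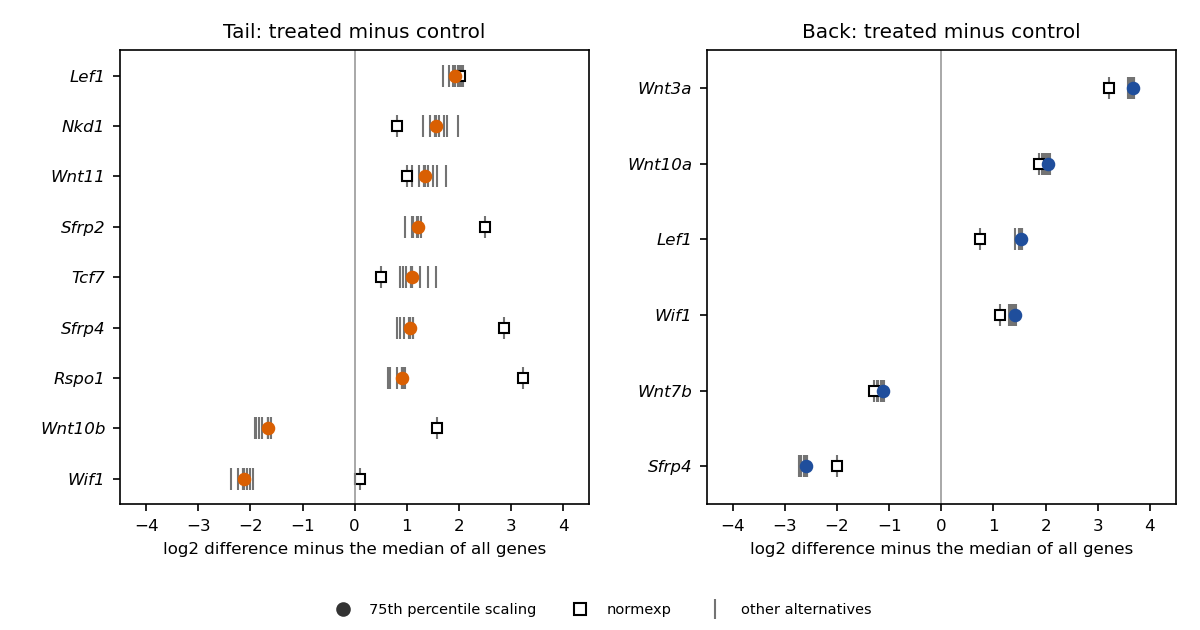
Members called in the tail (left) and the back (right), as the log2 difference treated minus control less the median of all genes under the same processing. Scalings that shift all genes alike nearly cancel in this measure. Filled points use 75th percentile scaling, open squares normexp background correction and ticks the other alternatives; Wnt10b and Wif1 in the tail are the ones that cross 0, at 1.58 and 0.10 with normexp.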

How the data were processed

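Total RNA, 200 ng per group, was hybridised to 4 one-colour Agilent arrays, per the labels' protocols. Per the file headers, the deposited intensity is a background-corrected spot signal with no scaling across arrays, made by Feature Extraction 10.5.1.1. The submitters' processing notes give 10.7. The authors' deposited table of processed values is on a log2 scale. Its differences between arrays equalled those of the scanner signal, up to a constant, within 0.001 for 99.95% of probes in the tail and 99.97% in the back, so scale and direction were settled. Each probe was centred over the arrays, and column medians were 0.10, -0.28, 0.08 and -0.03 for treated tail, tail control, treated back and back control. How its scaling was made is not stated.

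From the scanner files, outlier spots were dropped, spots of a probe averaged and log2 signals set relative to each array's 75th percentile over 41174 probes. Of these, 24375 (59.2%) matched 1 symbol through their accession in RefSeq's GRCm38.p6 table. Coordinates are given for RefSeq promoter windows only, because the files refer to build mm8. A probe was taken as well above background when all its usable spots were. A probe dim on 1 array took its own signal there or the array's lowest signal well above background, whichever was larger. Saturated values stood as bounds. Genes dim or saturated on both arrays, or pointing against their bound, had no value. Medians include genes at their bound.

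Named genes were all members, and genes from among the 3 largest differences of each wider list. Members and lists were chosen with earlier results of these data known. Alternatives from limma 3.58.1 were normexp (offset 50, on median signals), quantile normalization and cyclic loess, each run separately. The others were median and spike-in scaling, other filters, mean probes, outliers kept and the authors' table. The calling steps were checked on simulated arrays with spot noise only, which gives no error rate between animals. The number of arrays limits the precision.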

Additional observations from a re-analysis of the deposited data

Results flagged for a closer look

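Sfrp4 and Wif1 ran in opposite directions in the 2 skins. Sfrp4 differed by -2.60 in the back (treated minus control) and by 1.39 in the tail. Wif1 differed by 1.40 in the back and by -1.80 in the tail. The difference between skins was not tested, since each group had 1 array. With spike-in scaling Sfrp4 in the tail was at -0.68, and with normexp background correction Wif1 in the tail was at 0.73, so under those settings the directions no longer opposed each other.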

How the results depend on the processing

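With 1 array per group no value has an error between animals, and site and light dose cannot be told apart. No paired analysis was possible because each group had 1 array. Naming probes by accession alone was not run separately, since the files hold no gene names and every probe was named that way. Scaling mattered most. With spike-in scaling the members' median was -1.78 for the tail (0.14 with the 75th percentile), -0.33 for the back (0.13) and -1.42 for the untreated skins (-0.60). That setting left 0 members higher and 16 lower in the tail (7 and 2), 6 lower in the back (2) and 17 lower between the skins (10). In the tail it put Tcf7 at -0.64, Wnt11 at -0.40, Sfrp2 at -0.53, Sfrp4 at -0.68, Nkd1 at -0.18 and Rspo1 at -0.82. It shifted the median of all genes by -1.96 for the tail, -0.44 for the back and -0.77 for the untreated skins. Cyclic loess gave medians of -0.18 in the tail and -0.95 between the skins with 6 lower in the tail, and quantile normalization -0.25 and -0.91, also with 6. Normexp gave 1.13 and -0.25, with 12 higher in the tail, Wnt10b at 2.21 and Wif1 at 0.73. Without a filter the medians were 0.43 for the back and -0.38 for the untreated skins, and 12 members were higher in the tail and 8 between the skins. A signal of at least 200 left a median of -0.24 between the skins with 4 lower, 4 higher and 0 lower in the tail, and 2 higher and 1 lower in the back. The cause of these shifts was not tested. Measured genes only, median scaling, mean probes, outliers kept and the authors' table reversed no called member. Keeping measured genes only left each measured value as it was. The authors' table holds nearly the same signals, shifted by -0.012 (tail), 0.006 (back) and -0.015 (controls) against the main scaling. Median scaling shifted all genes alike and by little. No reversal of a 2-fold call was possible in those cases, so they are no check. Mean probes could change only members with more than 1 probe.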
